A study of Mus musculus with 12 samples.

Results

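*Ins1*, *Ins2* and *Iapp* were followed through every library of a mouse islet series. They were taken by name, as the genes of the insulins and of the peptide stored with them, and are 3 of the 31055 genes of the single-cell matrices and 3 of the 45808 genes of the bulk table. *Ins1* and *Ins2* are the insulin genes of the mouse, a retained copy and the ancestral gene, and both make preproinsulin in β-cells. *Iapp* encodes islet amyloid polypeptide, or amylin, which is packed into the same secretory granules as insulin and released with it. In rodents *Iapp* is also known from δ-cells, whereas α- and γ-cells are defined by glucagon (*Gcg*) and by pancreatic polypeptide (*Ppy*).

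The single-cell samples came from doxycycline-treated Ppy-rtTA; R26-YFP mice of mixed background, aged 2 months, in which doxycycline at 1 mg per ml of drinking water had switched on YFP in cells that express *Ppy*. Dissociated islet cells were sorted into a YFP+ and a YFP- fraction in each of 2 experiments, which gave 4 libraries of 3′ tag counts, in which 1 UMI stands for 1 captured transcript. Both fractions of an experiment came from the same mice. This genotype is that of the study's methods, whereas the labels of these samples call the mice wild-type. Bulk RNA was from YFP+ cells: 5 γ-cell libraries came from Ppy-rtTA;TetO-Cre;R26-YFP mice and 3 δ-cell libraries from Sst-Cre;R26-YFP mice, also aged 2 months and on a mixed background, with the same doxycycline treatment given in the labels of all 12 samples. The reporter limits these groups as models, and rtTA replaces the coding sequence of 1 *Ppy* allele. In the γ-cell mice a cell is YFP+ if the *Ppy* locus drove rtTA while doxycycline was given, and in the δ-cell mice if *Sst* ever drove Cre, so neither sort excludes a cell that also makes another hormone. The study's methods give islets of 3 and 4 mice for the 2 single-cell experiments, so each single-cell library is a pool of mice. The labels do not say which animals stood behind each library. P-values therefore measure the spread between libraries or, for the cell classes formed below, between sums of the 2 experiments. That second spread was estimated over all 7 classes together.

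The 4 single-cell libraries held 1300 to 1689 cells and 10683494 to 18330975 UMIs, with medians of 4237 to 8338 UMIs per cell, and 19 cell barcodes occurred in more than 1 library. The bulk libraries held 7641916 to 31784878 counts, fewer in each δ-cell than in each γ-cell library, and the δ-cell reads were single-end on another sequencer. Of 5982 cells, 120 were set aside as likely doublets. In the YFP+ libraries of experiments 1 and 2 these were 1 and 14 cells, and in the YFP- libraries 55 and 50. Of the remaining 5862 cells, 4548 lay in 9 endocrine clusters. Among the 9 was a cluster of 83 cells led by T-cell genes such as *Trbc2* and *Cd3d*. Hormone classes were formed from *Ppy*, *Gcg*, *Ins2* and *Sst*: monohormonal Ins2+ (523 cells), Sst+ (256), Gcg+ (614) and Ppy+ (1440) cells, and bihormonal Ppy+Ins2+ (122), Ppy+Sst+ (395) and Ppy+Gcg+ (768) cells. Since *Ins2* set the classes, its levels by class are given as a description only. *Ins1* and *Iapp* set neither classes nor clusters. Yet *Ins1* followed *Ins2* over the sums of UMIs per class and experiment (Pearson's r = 0.994). Its differences between classes with and without *Ins2* are therefore not independent of the cut on *Ins2*. Gcg+ cells of experiment 2 lay mostly (259 of 317) in a cluster of 358 cells found in no other library. The cluster led by T-cell genes held 11 of the Ppy+Gcg+ cells and 1 of the Ppy+Sst+ cells.

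On the mouse build GRCm38.p6, *Ins1* lies on the forward strand at chr19:52264297-52265476 with 1 annotated transcript. *Ins2* lies on the reverse strand at chr7:142678656-142743381 with 9 transcripts, and *Iapp* on the forward strand at chr6:142298423-142303961 with 2, inside the span of *Slco1a5* on the opposite strand. The coding sequence has 327 bases in *Ins1* and 333 in *Ins2*. Over 327 aligned positions the insulin genes shared 302 bases (92.4%), so it matters whether reads could tell them apart. Of 1013 windows of 50 bases along the *Ins1* transcript, 7 also occurred in *Ins2*, and of 963 windows of 100 bases, the read length of the bulk libraries, 0 did. The end of the coding sequence, which encodes the A chain, is where they are most alike. The last 113 coding bases, which the annotation places in 1 exon of each gene (chr19:52264838-52264950 and chr7:142678713-142678825), differ at 7 positions, shown in capitals:

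Ins1: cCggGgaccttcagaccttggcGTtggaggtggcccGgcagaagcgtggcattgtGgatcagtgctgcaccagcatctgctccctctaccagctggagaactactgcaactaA
Ins2: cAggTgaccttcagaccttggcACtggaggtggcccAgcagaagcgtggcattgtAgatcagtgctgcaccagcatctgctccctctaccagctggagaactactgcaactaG

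The 250 bases before the start of *Ins1* and of *Iapp* (RefSeq, GRCm38.p6) are shown because β-cell factors with a homeodomain, such as Pdx1 and Nkx6-1, read TAAT cores, and NeuroD1 with its partners reads CATCTG. Capitals mark TAAT and CATCTG on either strand, so that ATTA and CAGATG are counted too and overlapping matches are counted separately:

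Ins1, chr19:52264047-52264296, forward strand: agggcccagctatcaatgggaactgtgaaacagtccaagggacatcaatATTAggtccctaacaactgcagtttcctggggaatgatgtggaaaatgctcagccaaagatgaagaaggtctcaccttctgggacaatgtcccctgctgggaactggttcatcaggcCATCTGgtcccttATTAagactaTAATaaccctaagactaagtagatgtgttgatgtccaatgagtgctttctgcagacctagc
Iapp, chr6:142298175-142298424, forward strand: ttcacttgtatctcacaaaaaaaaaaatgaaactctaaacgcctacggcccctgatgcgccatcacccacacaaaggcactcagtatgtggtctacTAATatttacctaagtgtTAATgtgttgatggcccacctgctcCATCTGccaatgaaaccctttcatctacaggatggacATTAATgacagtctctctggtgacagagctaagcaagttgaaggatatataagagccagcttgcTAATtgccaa

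*Ins1* held 3 TAAT matches and *Iapp* held 5, and each held 1 CATCTG. At least 1 TAAT stood in 54.9% of the 32851 promoters of the same length and at least 1 CATCTG in 14.4%, and 5671 promoters held as many as 3 TAAT. TGACG, the core of the cyclic AMP element, was in neither sequence (17.8% of promoters hold it), nor was TATAAA (12.4%). These letters were matched, and no binding was measured.

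Levels are given in CPM, the UMIs of a gene scaled to the same total in each class and experiment. *Ins1* stood at 203992 and 211509 CPM in Ins2+ cells of experiments 1 and 2. In Ppy+Ins2+ cells it stood at 64029 and 92668 CPM. All other classes were between 137 and 2912 CPM, a gap of more than an order of magnitude that no library bridged. *Ins2* followed the same order by construction, at 493037 and 442109 CPM in Ins2+ cells, 395972 and 317529 CPM in Ppy+Ins2+ cells and 607 to 10888 CPM in the rest. Insulin transcripts thus made up 69.7% and 65.4% of all UMIs of Ins2+ cells and 46.0% and 41.0% of those of Ppy+Ins2+ cells.

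*Iapp* had a different order. Ppy+Ins2+ cells held 59627 and 49817 CPM and Ins2+ cells 50856 and 48800 CPM. Sst+ cells came next at 37201 and 34664 CPM, followed by Ppy+Sst+ cells at 24480 and 17660 CPM. The classes without *Ins2* or *Sst* lay far lower, at 2003 and 1686 CPM in Ppy+Gcg+ cells, 1653 and 1386 in Gcg+ cells and 1404 and 974 in Ppy+ cells. In these single-cell classes *Iapp* was therefore high in insulin and in somatostatin cells, while *Ins1* was high in insulin cells only.

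**Figure D1:**
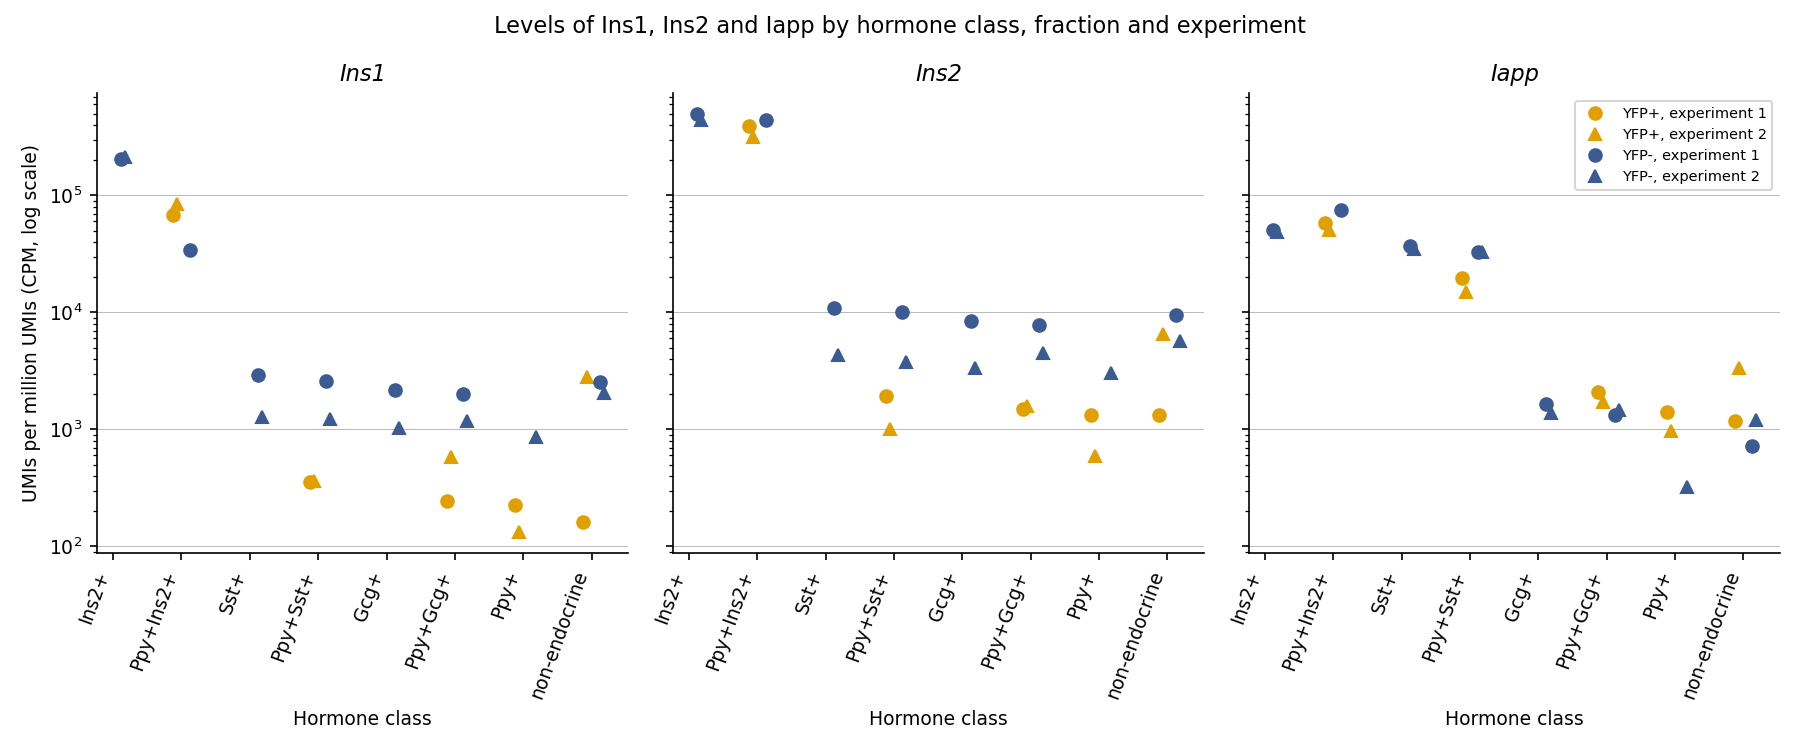
Levels of *Ins1*, *Ins2* and *Iapp* in CPM (log scale) in each hormone class and in non-endocrine cells, with YFP+ fractions in yellow, YFP- fractions in blue, experiment 1 as circles and experiment 2 as triangles (groups under 10 cells are not drawn). Both insulin genes fall by more than an order of magnitude outside Ins2+ and Ppy+Ins2+ cells, where blue points lie above most yellow ones, whereas *Iapp* lies between 15001 and 37201 CPM in Sst+ and Ppy+Sst+ cells.

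Classes were compared by edgeR's quasi-likelihood test on UMI sums per class and experiment, with p-values adjusted (Benjamini-Hochberg) over 10548 genes and a gene was called when its adjusted p did not exceed 0.05 and its fold change exceeded 0.5 on the natural log scale (0.72 on the log2 scale). Fitted fold changes are relative to the other genes (TMM), which differs from a ratio of CPM where insulin fills most of a cell's UMIs. For *Iapp* in Ins2+ against Sst+ cells, for example, the ratio of mean CPM was 0.47 and the fitted change 1.89 on the log2 scale.

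The classes were cut on *Ins2*, so p-values of *Ins1* between Ins2+ or Ppy+Ins2+ cells and the rest give no independent support. Against Ppy+ cells, where 26.4% of all genes were called, *Ins1* was higher in Ins2+ cells by 10.78 ± 0.38 (log2 ± SE, adjusted p = 1.4e-22) and *Iapp* by 5.99 ± 0.16 (5.5e-26). Against Gcg+ cells (22.3% of genes called) the differences were 8.07 ± 0.34 and 6.02 ± 0.16, with adjusted p-values of 5.0e-20 and 1.5e-25. Against Sst+ cells (15.3% called) *Ins1* differed by 8.11 ± 0.34 (1.1e-19), as much as against Gcg+ cells, but *Iapp* by only 1.89 ± 0.13 (1.2e-13). Of the 3 differences of Ins2+ cells from other monohormonal classes, that in *Iapp* from Sst+ cells was thus the smallest. With the mean free RNA subtracted it was 1.94 and lost its call (adjusted p = 0.0596). This took 0.371% and 0.83% of the *Iapp* UMIs of Ins2+ cells and 2.809% and 5.491% of those of Sst+ cells. It also set the *Iapp* sum of Ppy+ cells of experiment 2, which is in the same fit, to 0.

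Among the other monohormonal classes, *Iapp* was higher in Sst+ than in Ppy+ cells by 4.10 ± 0.14 (adjusted p = 4.3e-22; 11.6% of genes called) and higher than in Gcg+ cells by 4.13 ± 0.14 (7.3e-22; 11.9% called). Gcg+ and Ppy+ cells (12.5% of genes called) differed in *Iapp* by -0.03 ± 0.13, which did not pass the test (adjusted p = 0.907). With no requirement that monohormonal cells lie in a cluster of their hormone, the same difference was -0.91 (adjusted p = 5.4e-06), and the level in Ppy+ cells rose to 2401 CPM as a mean of both experiments.

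*Ins1* was also called higher in Sst+ than in Ppy+ cells (2.68 ± 0.27, adjusted p = 2.4e-09) and in Gcg+ than in Ppy+ cells (2.71 ± 0.27, 1.0e-09), while Sst+ and Gcg+ cells differed by -0.04 ± 0.26 (0.960). Both calls were lost when UMIs were summed per class and library with libraries blocked, at 1.22 (0.120) and 1.24 (0.105). For both contrasts only the YFP- library of experiment 2 held at least 10 cells of each class, with 10 Ppy+ cells and 32 *Ins1* UMIs in them. These low levels went with the fraction. Nearly all Ppy+ cells were YFP+ (1429 of 1440), and every Gcg+ and Sst+ cell was YFP-. In the YFP- libraries of experiments 1 and 2, *Ins1* stood at 2159 and 1030 CPM in Gcg+ cells. Sst+ cells held 2912 and 1285 CPM and the non-endocrine cells 2543 and 2048 CPM. The latter form stromal, endothelial, macrophage, B-lineage, acinar and other or unnamed clusters that should lack insulin. In the YFP+ libraries Ppy+ cells held 225 and 132 CPM and the non-endocrine cells 163 and 2819 CPM. Behind the last value the median cell had 0.0 *Ins1* UMIs and 25.7% of cells had any, so a minority of cells carried it. By CPM *Ins1* in Gcg+ cells thus lay below the level in non-endocrine cells of the same libraries, and in Sst+ cells above it in experiment 1 and below it in experiment 2. Per cell the order differed, as Gcg+ cells were deeper, with medians of 7877 and 6423 UMIs against 4338 and 3136 in non-endocrine YFP- cells. Median *Ins1* UMIs were 16 and 6 in Gcg+ cells, 11 and 3 in Sst+ cells and 11 and 4 in non-endocrine YFP- cells. The part of free RNA in these levels was not tested.

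Shares of cells with a UMI were close too. After each cell was thinned to 1000 UMIs, an *Ins1* UMI was found in 87.5% and 65.6% of Gcg+ cells and in 93.8% and 72.4% of Sst+ cells, against 89.6% and 67.3% of the non-endocrine YFP- cells. The exact 95% intervals of the Sst+ shares, 88.1 to 97.3 and 63.8 to 80.0, contain the non-endocrine values. These intervals cover counting error only, treat the cells of a library as independent and take the non-endocrine share as fixed. Whether the shares differ between these groups was therefore not tested. Among YFP+ cells the shares were 21.3% and 9.56% in Ppy+ cells and 13.9% and 12.9% in non-endocrine cells, whose unthinned medians were 3449.5 and 2377 UMIs, against 7643 and 5935 in Ppy+ cells. Without thinning, 99.9% and 91.2% of all cells of the YFP+ libraries and 100.0% and 99.9% of those of the YFP- libraries held an *Ins2* UMI. A single insulin UMI therefore does not mark a β-cell in these files.

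*Iapp* in Sst+ cells lay on the other side of this comparison. Every Sst+ cell of both experiments (129 and 127) kept an *Iapp* UMI after thinning, and 98.4% and 100.0% kept 5 or more, against 2.03% and 2.76% of the non-endocrine cells of the same YFP- libraries. Its median was 342 UMIs per 10000 UMIs of a cell in experiment 1 (interquartile range 246 to 473) and 288 in experiment 2 (225 to 397). In Ins2+ cells the medians were 491 (414 to 573) and 485 (405 to 562), so the middle ranges of both classes overlapped in experiment 1. No Sst+ cell had fewer than 10 *Iapp* UMIs.

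The ratio of *Iapp* to *Ins2* was compared as well. Ins2+ cells held 10.3 and 11.04 *Iapp* UMIs per 100 *Ins2* UMIs. Non-endocrine YFP- cells held 7.52 and 21.3. Sst+ cells held 342 and 804, far above both. Gcg+ cells lay at 19.5 and 41.7, also above the non-endocrine ratio of their libraries.

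**Figure D2:**
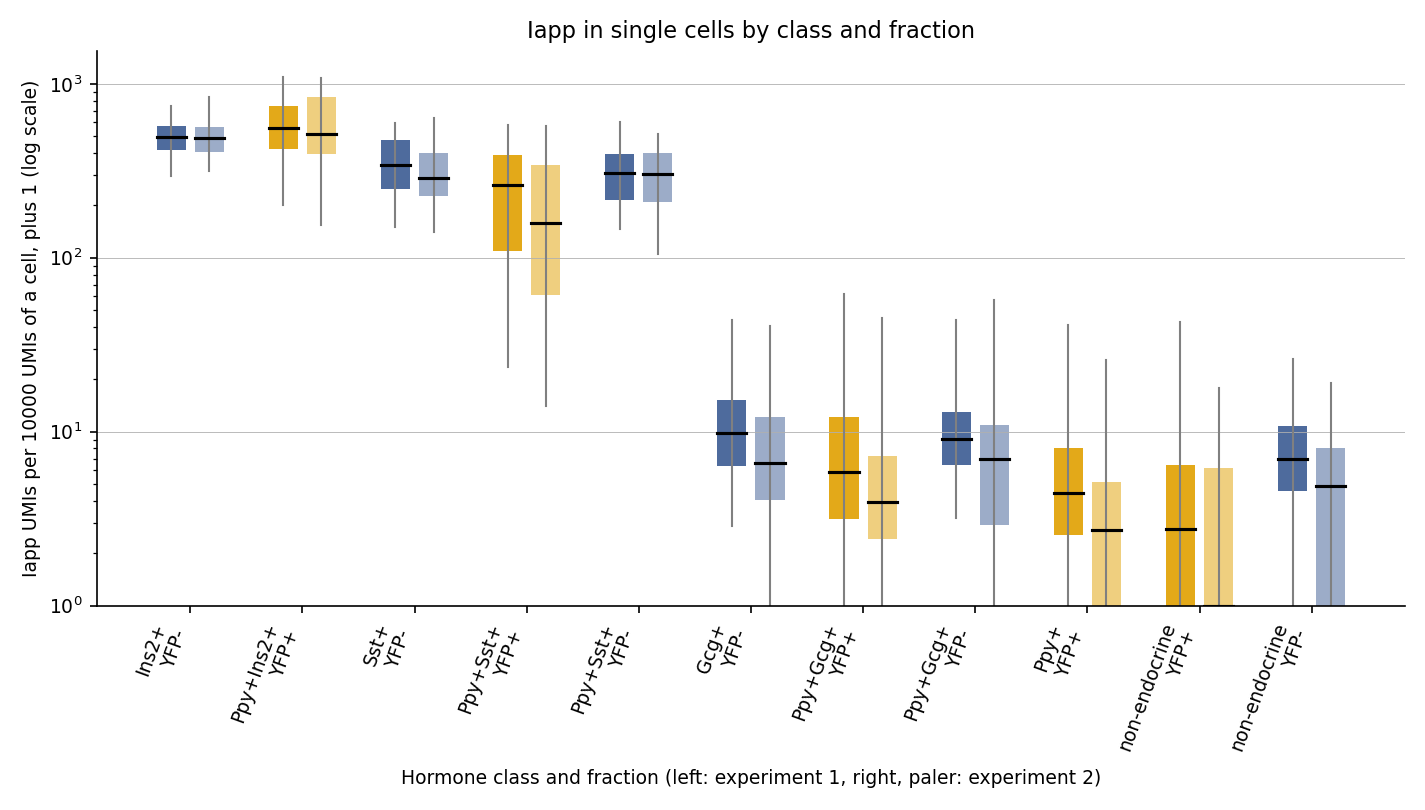
*Iapp* UMIs per 10000 UMIs of a cell, plus 1 (log scale), by class and fraction, for groups of at least 30 cells; boxes run from the first to the third quartile, black lines are medians and grey lines run from the 5th to the 95th percentile. Medians of Ins2+, Ppy+Ins2+, Sst+ and Ppy+Sst+ cells lie between 158 and 558, and those of all other groups at 8.85 or lower.

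In Gcg+ and Ppy+ cells *Iapp* was low and unevenly spread. The median Gcg+ cell held 8.85 and 5.63 *Iapp* UMIs per 10000, and the median Ppy+ cell 3.42 and 1.72. Non-endocrine medians were 5.98 and 3.88 in the YFP- fractions and 1.77 and 0.0 in the YFP+ fractions, so the median Gcg+ or Ppy+ cell was within 3 UMIs per 10000 of the median non-endocrine cell. After thinning, 60.9% and 51.1% of Gcg+ cells had an *Iapp* UMI, against 50.7% and 35.9% of non-endocrine YFP- cells, and 36.7% and 24.3% of YFP+ Ppy+ cells, against 33.3% and 27.7% of non-endocrine YFP+ cells. The sums came mostly from a few cells. The 34 and 39 Ppy+ cells with the most *Iapp* UMIs (the upper 5%) held 63.5% and 76.0% of the *Iapp* UMIs of their class, and the upper 5% of Gcg+ cells held 41.0% and 52.7%. In Sst+ and Ins2+ cells the same share of cells held 11.1% to 17.5%. At least 10 *Iapp* UMIs were found in 16.1% and 6.95% of Ppy+ cells and in 34.7% and 22.4% of Gcg+ cells, against 9.28% and 3.73% of non-endocrine YFP- cells and 8.33% and 4.95% of non-endocrine YFP+ cells, which were shallower.

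Bihormonal Ppy+Sst+ cells were compared with each parent class. *Iapp* was higher than in Ppy+ cells by 3.52 ± 0.14 (adjusted p = 3.0e-20; 7.73% of genes called). Against Sst+ cells (0.446% of genes called) it was lower by -0.57 ± 0.13, with an adjusted p of 0.0240 but below the fold threshold. The difference went with the fraction. In the YFP- libraries Ppy+Sst+ cells held 32821 and 32896 CPM, next to 37201 and 34664 in Sst+ cells, and the change between them was -0.13 (adjusted p = 1.00). In the YFP+ libraries Ppy+Sst+ cells held 19715 and 15001 CPM. Restricted to bihormonal cells outside the clusters with high *Sst*, the change was -1.66 (1.8e-10) and was called.

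Ppy+Sst+ cells of the YFP+ fraction were also the more varied. Their medians were 261 and 158 *Iapp* UMIs per 10000, with interquartile ranges of 109 to 388 and 59.7 to 341, whereas YFP- cells of the class had medians of 308 and 301 and ranges of 215 to 393 and 207 to 398. Over the 101 and 155 YFP+ cells, *Iapp* followed *Sst* (Spearman's rho 0.60 and 0.73) and ran against *Ppy* (-0.57 and -0.64) and against the total UMIs of the cell (-0.32 and -0.51). Over the 80 and 59 YFP- cells the values were 0.12 and 0.33 for *Sst* and -0.20 and -0.27 for *Ppy*. Cells of 1 library are not replicates, and all levels of a cell share its total, so these are descriptions.

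In Ppy+Gcg+ cells *Iapp* was not called in either direction. The change was 0.34 ± 0.13 against Ppy+ cells (adjusted p = 0.146; 2.71% of genes called) and 0.37 ± 0.13 against Gcg+ cells (0.113; 3.17% called). Against Ppy+ cells it turned to -0.67 (0.0017) with no cluster requirement, and was 0.71 (0.00034) with doublets simulated within each library, though neither passed the fold threshold. *Ins1* was called higher than in Ppy+ cells (1.38 ± 0.26, 0.00061) and lower than in Gcg+ cells (-1.33 ± 0.26, 0.0010), and likewise higher in Ppy+Sst+ than in Ppy+ cells (1.50 ± 0.26, 0.00010) and lower than in Sst+ cells (-1.18 ± 0.26, 0.0246). Without 1 experiment the differences of Ppy+Gcg+ cells were 0.68 and 1.92 from Ppy+ cells and -2.21 and -0.54 from Gcg+ cells. With libraries blocked none of the 4 was called, at 1.05 (adjusted p = 0.0816), -0.19 (0.972), 0.76 (0.229) and -0.46 (0.995) in the order given, and the first was not called without the experiment block (0.292) or by DESeq2 (0.214) either. Within a fraction 3 of these 4 differences were not called. In YFP+ libraries alone the change was 0.86 (adjusted p = 0.0011) in Ppy+Gcg+ and 0.41 (0.257) in Ppy+Sst+ cells against Ppy+ cells, the former from 243 against 225 CPM in experiment 1 and 583 against 132 CPM in experiment 2, where 1.47% of Ppy+Gcg+ cells kept 5 or more *Ins1* UMIs after thinning, and in YFP- libraries alone it was -0.13 (1.00) in Ppy+Sst+ against Sst+ cells. Ppy+Gcg+ cells held 2007 and 1174 CPM of *Ins1* in the YFP- libraries, where Gcg+ cells held 2159 and 1030, and the change between them there was 0.03 (adjusted p = 0.998).

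Bihormonal Ppy+Ins2+ cells, 109 YFP+ and 13 YFP-, carried insulin at levels between those of β-cells and the rest. Few cells of the YFP+ libraries had been marked as doublets, and whether some Ppy+Ins2+ cells are doublets was not tested. Against Ppy+ cells (7.04% of genes called) *Ins1* was higher by 8.78 ± 0.35 (4.0e-20) and *Iapp* by 5.49 ± 0.15 (1.4e-24). Against Ins2+ cells (3.36% called) *Ins1* was lower by -2.01 ± 0.26 (1.8e-06), and mean CPM was 78348 ± 20250 against 207750 ± 5315 (SD, n = 2). When UMIs were summed per class and library with libraries blocked, the change in *Ins1* was -1.25 (adjusted p = 0.173, not called). Only the YFP- library of experiment 1 held at least 10 cells of both classes, so elsewhere they are linked only through other classes. There *Ins1* stood at 34462 CPM in 10 Ppy+Ins2+ cells and at 203959 CPM in Ins2+ cells. With the mean free RNA subtracted the change was not called either (-1.84, 0.331). This took 0.326% of the *Ins1* UMIs of Ins2+ cells in both experiments and 0.342% and 1.015% of those of Ppy+Ins2+ cells. It also set some *Ins1* sums of other classes in the same fit to 0. *Iapp* did not pass the fold threshold (-0.50 ± 0.13, 0.0173), and its direction depended on the scale, since mean CPM was 54722 ± 6937 in Ppy+Ins2+ and 49828 ± 1454 in Ins2+ cells, a log2 ratio of 0.14. Relative to insulin, Ppy+Ins2+ cells held more *Iapp* than Ins2+ cells, with 15.1 and 15.7 UMIs per 100 *Ins2* UMIs against 10.3 and 11.04.

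The threshold on *Ins2* cut few borderline cells, which follows from its choice as a density minimum. It stood at 6.16 on the natural log scale of UMIs per 10000 plus 1, and 10 of 4548 endocrine cells lay within 0.25 of it. As near to the thresholds of *Ppy*, *Gcg* and *Sst* lay 72, 48 and 18 cells. For *Ins2* the nearest cell below was at 6.14, with 198 *Ins2* UMIs of 4289, and the nearest above at 6.28, with 151 of 2837.

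The balance of the insulin genes was measured cell by cell as *Ins1* UMIs in percent of *Ins1* and *Ins2* UMIs. These are 3′ tags, so the share does not depend on transcript length, and a 95% exact (Clopper-Pearson) interval is given, which covers counting error only. Over all UMIs of Ins2+ cells the share was 29.3% (29.2 to 29.3) in experiment 1 and 32.4% (32.3 to 32.5) in experiment 2. Each of the 432 and 91 cells had at least 20 insulin UMIs, with medians of 16967 and 7954, and the median cell was at 28.7% (interquartile range 25.7 to 31.4) and 31.7% (28.5 to 34.2). *Ins2* thus outnumbered *Ins1* in every Ins2+ cell, since the highest share was 45.5%. The spread over cells, an SD of 6.37 and 5.32 percentage points, was far above the 0.416 and 0.634 that counting alone gives at these depths.

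In Ppy+Ins2+ cells *Ins1* made up less of the insulin. The pooled share was 13.9% (13.8 to 14.0) and 22.6% (22.4 to 22.8), and the median cell stood at 8.31% (3.90 to 17.5) and 18.3% (12.5 to 30.1). Within experiment 1 the 73 YFP+ cells were at 14.9% pooled and the 10 YFP- cells at 7.19%. *Ins2* chose both classes, so this difference is described and not tested, and the experiments differed as well.

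The share went with the cluster in which an insulin cell lay. A β-cell marker was counted for a cluster when its CPM there was above the midpoint of its lowest and highest value over endocrine clusters. Cluster 5 had 8 of 8 β-cell markers by this rule and is β-like. Cluster 7, led by *Defb1*, *Iapp* and *Mlxipl*, had only 2 of the 8 and is left unnamed. A low count does not mean absence, since Ins2+ cells held *G6pc2* at 236 and 273 CPM in cluster 7, against 539 and 649 in cluster 5. Of the Ins2+ cells 424 lay in cluster 5 and 99 in cluster 7, whereas 15 and 100 of the 122 Ppy+Ins2+ cells did. Ins2+ cells had median shares of 29.5% and 32.6% in cluster 5 and of 18.4% and 28.5% in cluster 7, and Ppy+Ins2+ cells of cluster 7 had 7.23% and 16.8%.

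Some genes of mature β-cells were low in the same cells. *Mafa*, a transactivator of the insulin promoter, stood at 199 and 250 CPM in Ins2+ cells of cluster 5, at 14.1 and 39.4 in those of cluster 7 and at 3.73 and 32.1 in Ppy+Ins2+ cells of cluster 7. *Ucn3*, a maturity marker, stood at 219 and 182, at 66.6 and 33.8, and at 36.1 and 17.8 CPM in the same order. *Nkx6-1*, another β-cell factor, did not follow by CPM, with 113 and 164, 118 and 160, and 132 and 128 CPM. Nor did *Pdx1*, with 46.2 and 31.5, 53.5 and 64.8, and 53.5 and 42.8 CPM. On the fitted scale *Nkx6-1* exceeded Ppy+ cells by 2.46 ± 0.17 in all Ins2+ cells and by 1.78 ± 0.22 in all Ppy+Ins2+ cells. For *Pdx1* these changes were 3.48 ± 0.19 and 2.73 ± 0.29, so the reading of both genes depended on the scale. *Iapp* was of similar size in the 3 groups, at 50315 and 46372, 55539 and 55083, and 63507 and 53616 CPM. Clusters were made from these cells, so no test is given.

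Depth moved with the share too. Over Ins2+ cells Spearman's rho between the *Ins1* share and the total UMIs of the cell was 0.65 and 0.38 (432 and 91 cells), and it was -0.22 and -0.04 with the level of *Ins2*. Over Ppy+Ins2+ cells rho was 0.26 and 0.07 with total UMIs and -0.39 and -0.18 with *Ppy* (83 and 39 cells). Ins2+ cells thinned to 1000 UMIs each kept a pooled share of 29.7%, against 30.8% unthinned, as means of both experiments. Random thinning leaves the expected share of a cell unchanged, so these values do not bear on the link between share and depth.

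**Figure D3:**
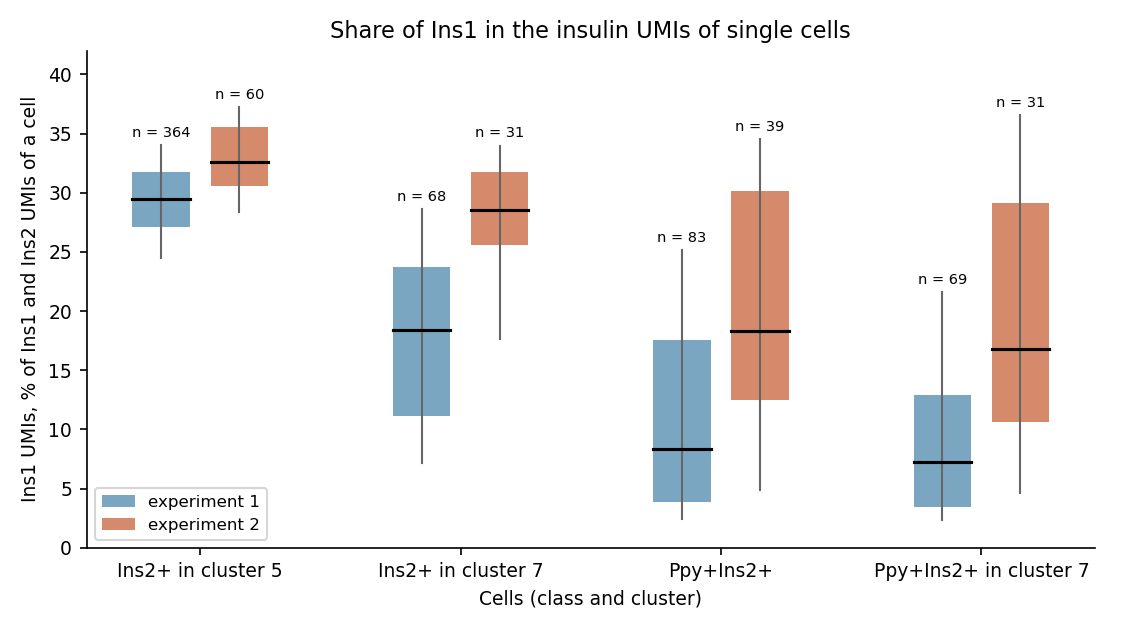
*Ins1* UMIs in percent of *Ins1* and *Ins2* UMIs of a cell, for Ins2+ cells of clusters 5 and 7 and for Ppy+Ins2+ cells, with experiment 1 in blue and experiment 2 in orange; boxes run from the first to the third quartile, black lines are medians, grey lines run from the 10th to the 90th percentile and n is the number of cells. Medians fall from 29.5% and 32.6% in Ins2+ cells of cluster 5 to 7.23% and 16.8% in Ppy+Ins2+ cells of cluster 7, and the boxes of the latter are wider.

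Whole libraries were then compared to ask how much of these transcripts the *Ppy*-labelled fraction holds. *Ins1* stood at 6052 and 4129 CPM in the YFP+ libraries and at 123429 and 33483 CPM in the YFP- libraries. *Ins2* stood at 34031 and 14718 CPM against 302054 and 71723 CPM, and *Iapp* at 8123 and 5803 against 33420 and 11181 CPM. Each member was lower in YFP+ cells in both experiments, and the YFP- libraries differed from each other by more than the YFP+ libraries did. With experiment as a block and 17.9% of 13493 genes called, *Ins1* was lower by -3.61 ± 0.56 (adjusted p = 0.0020) and *Ins2* by -2.65 ± 0.51 (0.0063), and *Iapp* was not called at -1.42 ± 0.46 (0.0613). DESeq2 called none of them (adjusted p = 0.43, 0.63 and 0.80), nor did edgeR without the block (0.0755, 0.160 and 0.242), and in endocrine clusters alone *Iapp* passed (-1.95, 0.0012).

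Few cells gave most of the insulin of the YFP+ fraction. The 73 and 36 Ppy+Ins2+ cells, 5.62% and 2.43% of the cells, held 85.7% and 57.8% of its *Ins1* UMIs and 87.4% and 60.0% of its *Ins2* UMIs. A single Ins2+ cell in the YFP+ library of experiment 1 held a further 8.76% of *Ins1*. In experiment 2, 17 cells above the *Ins2* threshold and above at least 1 other hormone threshold beside *Ppy* belonged to no class, and they held 32.9% of *Ins1* and 14.9% of *Iapp*. The 10 cells richest in *Ins1* held 50.9% and 52.5% of it. Without Ins2+ and Ppy+Ins2+ cells, *Ins1* fell to 362 and 1795 CPM in the YFP+ libraries.

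*Iapp* was shared out more widely there. Ppy+Ins2+ cells held 54.1% and 24.8% of the *Iapp* UMIs of the YFP+ libraries and Ppy+Sst+ cells 12.4% and 24.6%. The many Ppy+ cells, 52.0% and 50.7% of the cells, held 8.55% and 7.76%. Taken without Ins2+ and Ppy+Ins2+ cells, the libraries still had 3806 and 4493 CPM of *Iapp*.

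**Figure D4:**
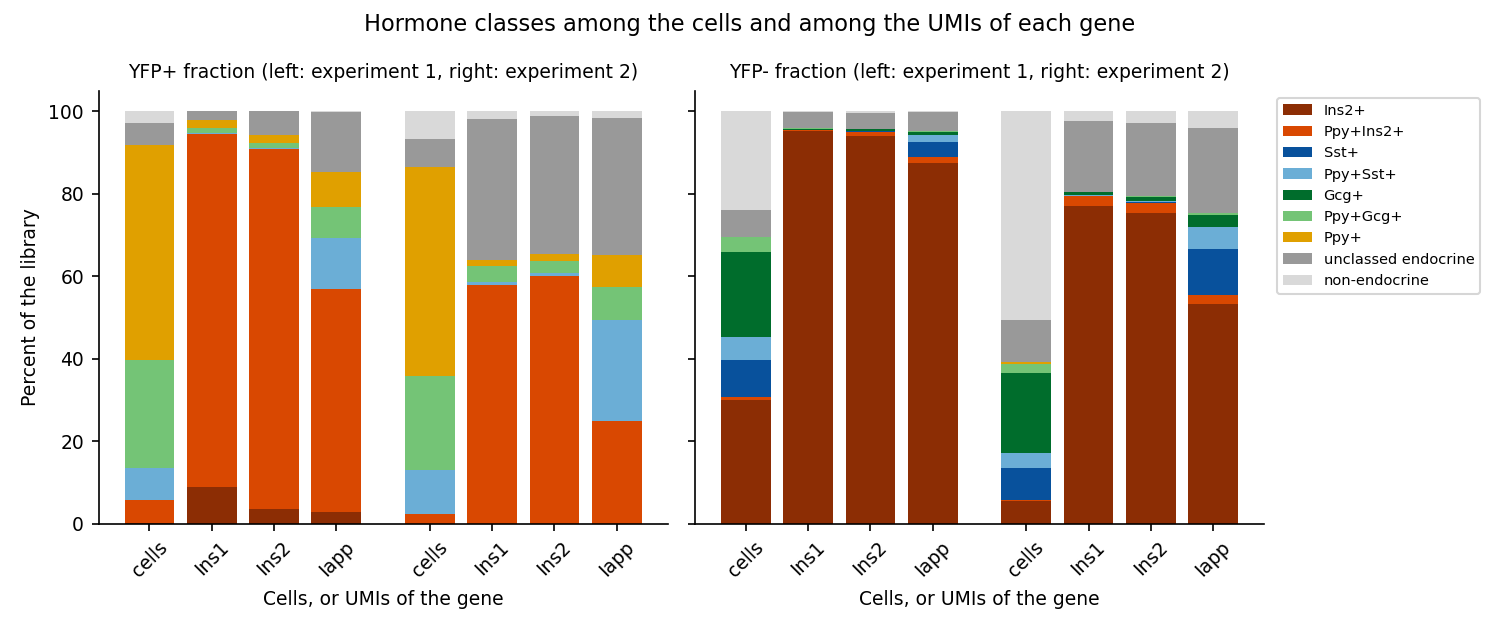
Percent of cells, and percent of the *Ins1*, *Ins2* and *Iapp* UMIs, that each hormone class holds in the YFP+ and YFP- library of each experiment, as stacked bars that add up to 100%. In YFP+ libraries Ppy+Ins2+ cells (orange) take 5.62% and 2.43% of cells but 85.7% and 57.8% of *Ins1*, and *Iapp* is divided between Ppy+Ins2+, Ppy+Sst+, Ppy+Gcg+, Ppy+ and unclassed cells.

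In the bulk libraries *Ins1* stood at 1378, 2445, 616, 1464 and 2129 CPM in γ-cell libraries 1 to 5 and at 106, 251 and 105 CPM in δ-cell libraries 1 to 3. *Ins2* stood at 11120, 15417, 5225, 9241 and 12482 CPM against 935, 2297 and 1149 CPM. For *Iapp* the γ-cell values were 3819, 3594, 3906, 3783 and 3945 CPM and the δ-cell values 3074, 2764 and 3271 CPM. The difference between γ- and δ-cell libraries was wide for both insulin genes and narrow for *Iapp*. The γ-cell libraries also spread widely in *Ins1* (1606 ± 712, SD, n = 5) and little in *Iapp* (3810 ± 137).

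By edgeR's quasi-likelihood test, where a gene was called when its adjusted p did not exceed 0.05 and its log2 fold change reached 1 (35.0% of 17926 genes called), *Ins1* was higher in γ-cells by 3.64 ± 0.54 (adjusted p = 0.00024) and *Ins2* by 3.13 ± 0.46 (0.00022). *Iapp* was higher by 0.60 ± 0.13 (0.0034) and did not reach the fold threshold. Under upper-quartile scaling, where the median of all genes moved by -0.35, the *Iapp* difference was 0.30 (0.0458). The single-cell classes went the other way, with *Iapp* higher in Sst+ than in Ppy+ cells by 4.10 ± 0.14. The sorted bulk groups are not these classes, and the cause of the opposite directions was not tested. Fewer cells of a type and less RNA per cell cannot be told apart in bulk samples, and read layout and sequencer go with the cell type.

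Levels per length are given in RPKM, reads scaled by library total and by the joint length of all annotated exons of a gene. This length was 1312 bases for *Ins2* and 974 for *Iapp*, whereas a single annotated transcript of each had 478 and 839 bases. With the transcript lengths *Ins2* would rise more than *Iapp*, so the gap between them depends on the length used. By joint exon length *Iapp* was the highest of the 3 genes in δ-cells, at 3118 ± 263 (SD, n = 3), against 1113 ± 558 for *Ins2* and 145 ± 79.0 for *Ins1*. In γ-cells *Ins2* led with 8153 ± 2895 (n = 5), followed by *Iapp* at 3911 ± 141 and *Ins1* at 1513 ± 671. *Ins1* made up 12.7% ± 1.79 of the insulin reads of γ-cells and 9.46% ± 0.97 of those of δ-cells (exact two-sided permutation test, p = 0.0357, adjusted over 2 tests 0.0357). *Iapp* reads per 100 *Ins2* reads were 41.0 ± 19.9 in γ-cells and 245 ± 110 in δ-cells, a log2 difference of -2.57 (exact permutation test, p = 0.0357, adjusted 0.0357). This p is the smallest that 5 against 3 libraries allow.

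Markers of other cells differed between these groups, though not all of them. The 8 β-cell markers were detected in all γ-cell libraries with summed levels of 288 to 398 CPM, and 7 or 8 of them in δ-cell libraries with 126 to 132 CPM. *Slc30a8* gave the largest part of the γ-cell sums, at 124 to 199 CPM against 11.8 to 27.0 in δ-cells. It does not single out β-cells, since in the single-cell classes it was not called between Ins2+ and Gcg+ cells (-0.06 ± 0.13, edgeR adjusted p = 0.780). *Pdx1* (34.0 to 44.8 against 39.0 to 71.4 CPM), *Slc2a2* (9.96 to 16.7 against 11.5 to 23.7) and *Sytl4* (3.65 to 7.20 against 2.63 to 5.10) overlapped between γ- and δ-cell libraries. *Nkx6-1*, *G6pc2* and *Ucn3* were higher in γ-cells. *Mafa*, a factor of mature β-cells, stood at 0.60 to 2.20 CPM in γ-cells and at 0.0 to 0.094 CPM in δ-cells. The γ-cell libraries also held *Gcg* at 43968 to 83707 CPM and *Sst* at 7119 to 11511 CPM, and the δ-cell libraries *Ppy* at 10889 to 16501 CPM. The 5 acinar markers summed to 1198 to 6740 CPM in γ-cells and 8733 to 34957 CPM in δ-cells. The part of these cells in the levels of *Ins1*, *Ins2* and *Iapp* was not tested.

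**Figure D5:**
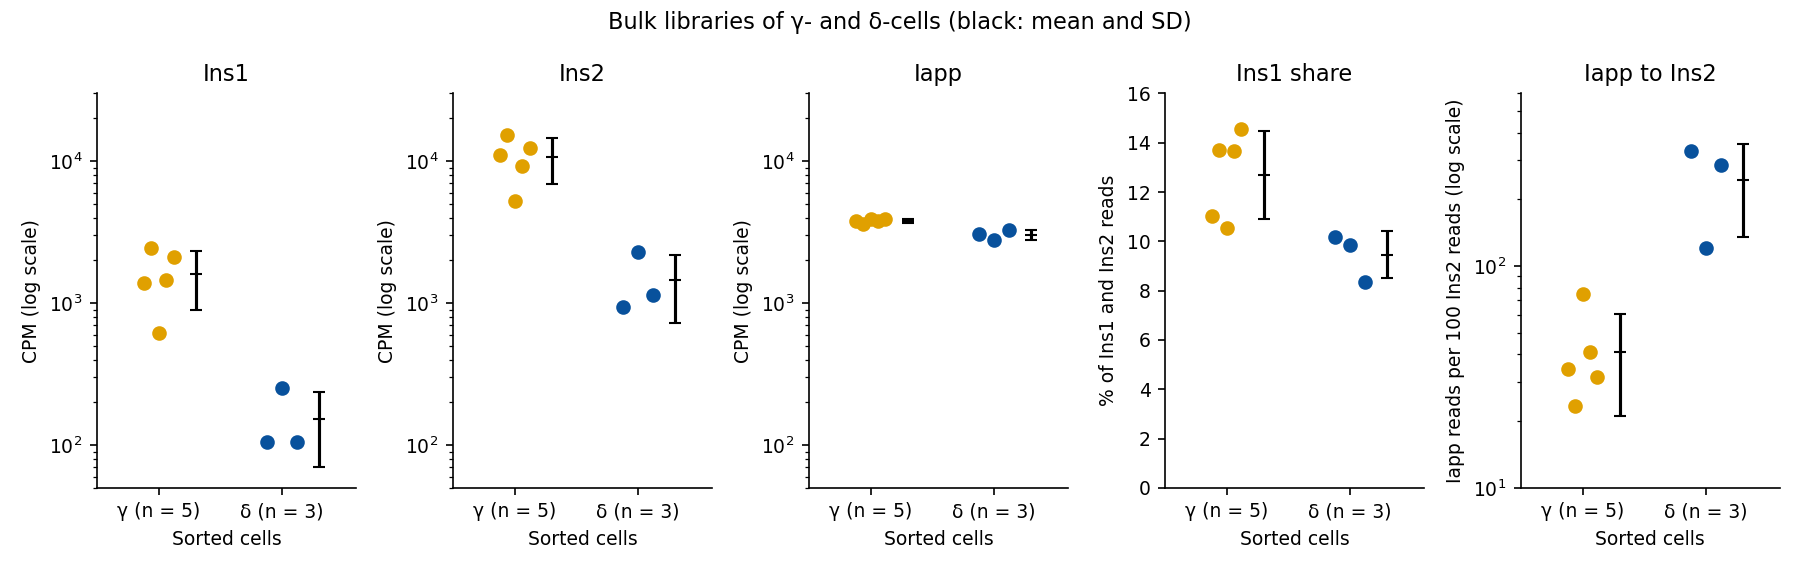
*Ins1*, *Ins2* and *Iapp* in CPM (log scale), the *Ins1* share of insulin reads in percent and *Iapp* reads per 100 *Ins2* reads (log scale) in each bulk library of γ-cells (yellow, n = 5) and δ-cells (blue, n = 3), with mean and SD in black. Both insulin genes and the *Ins1* share lie higher in γ-cells, and *Iapp* reads per 100 *Ins2* reads lie higher in δ-cells. The γ-cell points for *Iapp* lie between 3594 and 3945 CPM.

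Genes that act on insulin, from its transcription to its receptor, were described from 4 lists. Of 11 insulin gene regulators tested in Ins2+ against Ppy+ cells, 7 were higher, 1 lower and 3 not called, where 26.4% of all genes were called, with a median log2 change of 1.08 against 0.00 over all genes. *Pdx1*, which binds the insulin promoters, rose by 3.48 ± 0.19 (adjusted p = 6.0e-17), while *Isl1*, a factor of all endocrine cells, fell by 1.03 ± 0.13 on the log2 scale (7.1e-08). *Mafa* was at 180 and 191 CPM in Ins2+ cells and at 0.0 in both Ppy+ sums, at least 683-fold higher against a floor of 3 UMIs over the class. Of 7 tested genes of glucose sensing and secretion 5 were higher and none lower, at a median of 6.88. *G6pc2*, a glucose-6-phosphatase of β-cells, stood at 508 and 544 CPM against 0.518 and 0.571, and the glucose transporter gene *Slc2a2* at 183 and 167 CPM against 0.173 and 0.762.

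Of 10 tested genes of prohormone processing and the granule, 4 were higher in Ins2+ than in Ppy+ cells and 1 lower (26.4% of all genes called), with a median of 0.28. *Slc30a8*, which loads zinc into insulin granules, rose by 4.87 ± 0.17 (adjusted p = 8.5e-23). It was as much higher in Gcg+ than in Ppy+ cells (4.93 ± 0.17, 1.5e-22). *Pcsk1*, a proinsulin convertase, rose by 3.66 ± 0.16 (1.0e-19) in Ins2+ cells. *Scg5*, the chaperone of its sister enzyme, fell by 0.84 ± 0.17 (0.00010). Of 4 tested receptor genes for insulin and amylin, 2 were higher, *Igf1r* (1.29 ± 0.15) and *Ramp2* (2.16 ± 0.47), at a median of 0.91. The insulin receptor gene *Insr* (0.53 ± 0.24, adjusted p = 0.0876) and *Ramp1* (0.53 ± 0.25, 0.105) were not called. *Calcr*, the core of the amylin receptor, and its partner *Ramp3* had 0.0 CPM in these classes.

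Compared with Ins2+ cells, Ppy+Ins2+ cells had 4 of 7 glucose-sensing genes lower and none higher, where 3.36% of all genes were called, at a median of -1.99 against -0.03 over all genes. *Ucn3* fell by 2.55 ± 0.17 (adjusted p = 7.7e-13), *Sytl4*, a granule tether, by 2.19 ± 0.24 (7.1e-08), *G6pc2* by 2.06 ± 0.14 (7.7e-13) and *Slc2a2* by 1.99 ± 0.18 (4.9e-10). Of the 11 regulators 2 were lower, *Mafa* by -2.96 ± 0.26 (4.0e-10) and *Pdx1* by -0.75 ± 0.22 (0.0423), at a median of -0.13. These fitted changes are relative to the other genes. By CPM *Pdx1* was not lower in the cluster that held most Ppy+Ins2+ cells, so its direction depended on the scale. The granule list had 2 of 10 lower (*Slc30a8* and *Pcsk1*) at a median of -0.09, and none of the 4 receptor genes was called. Lower *Ins1*, *Mafa* and glucose-sensing genes were thus found in the same class sums.

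In Sst+ against Ppy+ cells, where 11.6% of all genes were called, 3 of 11 regulators were higher and 2 lower (median 0.34 against -0.02 over all genes), with *Pdx1* up by 2.63 ± 0.28 (adjusted p = 7.7e-09) and *Nkx6-1* down by -3.32 ± 0.52 (9.0e-06). Of the 4 receptor genes 3 were higher (*Igf1r*, *Ramp1* and *Ramp2*), at a median of 1.75, and *Insr* was not called (0.71 ± 0.35, 0.201). *Ramp1*, which turns the calcitonin receptor into an amylin receptor, stood at 171 and 156 CPM in Sst+ cells against 7.94 and 14.1 in Ppy+ cells. The glucose-sensing list had 2 of 7 higher, and the granule list 1 of 10 higher and 2 lower. In bulk, γ- against δ-cells, where 35.0% of all genes were called, 6 of 11 regulators were higher and 2 lower, 8 of 11 granule genes higher and 1 lower, 2 of 8 glucose-sensing genes higher and 1 lower, a share close to that over all genes, and 2 of 5 receptor genes higher and 1 lower, *Ramp1* at -2.22 ± 0.18 (3.2e-06). The sorted bulk groups and the single-cell classes are different populations.

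The genes most like each member were found by Pearson's correlation of log2 CPM over the 14 class sums, which share libraries, so the values are given without p. *Ins1* and *Ins2* were each other's nearest gene (r = 0.994), followed for both by *G6pc2*, *Slc2a2*, *Trpm5*, *Gad1* and *Ucn3*, with r from 0.971 to 0.988. *Iapp* was less like *Ins1* (0.802) than like *Ppp1r1a* (0.984), *Prkacb* (0.971), *Enho* (0.971), *Acly* (0.966), *Adra2a* (0.966), *Insm1* (0.964), *Mlxipl* (0.963), *Mpp3* (0.963) and *Tnfrsf11b* (0.957). None of the 10 genes nearest to *Iapp* was among the 10 nearest to either insulin gene.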

How the data were processed

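Members and gene lists were chosen with earlier results of these data known. The authors deposited raw counts for both assays: UMI counts from Cell Ranger (mm10 with YFP and rtTA added) and read counts from STAR 2.7.2b and HTSeq 0.9.1 in union mode (GRCm38.p6); the strand setting is not given in the sources used here. In the bulk table, 6 columns that match no sample were not used. The doublet caller, built on nearest neighbours in the manner of DoubletFinder, marked 2% of each experiment, and Scrublet was not run; clusters came from 1000 variable genes without the members, 50 principal components and Leiden at resolution 0.8, not Seurat. A cluster was endocrine when its mean of 8 endocrine markers was at least 0.25 times the highest. Thresholds were density minima; bihormonal cells exceeded *Ppy* and 1 other. Named genes were the members, the list members and the 10 genes most correlated with each member; predicted genes (1 for *Iapp*) were not named. Class sums were fitted with experiment as a block, because both fractions of an experiment come from the same mice and the study's methods regress the experiment out; deviations of same-experiment libraries correlated at 0.40. Bulk genes needed a mean of 5 counts. Filters were otherwise filterByExpr, with TMM in edgeR 4.0.16 and DESeq2 1.42.0 as alternative (R 4.3.3, Python 3.11.15). The tests were checked on simulated data. Alternatives are those of the closing section. After seeing the data 2 were added: the cluster led by T-cell genes left out, and the median free RNA subtracted in place of the mean.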

Additional observations from a re-analysis of the deposited data

How the results depend on the processing

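The differences of Ins2+ and Ppy+Ins2+ cells from Ppy+ cells, and of Ins2+ from Gcg+ cells, in *Ins1* and *Iapp* kept direction and call under every alternative that gave a tested value. Of the values that answer a comparison, 446 alternatives left the call or value as it was and the following did not, for causes that were not tested. With the mean free RNA of the non-endocrine cells subtracted, *Iapp* in Ins2+ against Sst+ cells was 1.94 (adjusted p = 0.0596) and *Ins1* in Ppy+Ins2+ against Ins2+ cells -1.84 (0.331). With the library as a block the latter was -1.25 (0.173), and the low *Ins1* levels of Sst+, Gcg+, Ppy+Gcg+ and Ppy+Sst+ cells lost each of their 6 calls against each other or Ppy+ cells. For Ppy+Ins2+ against Ins2+ cells, only the YFP- library of experiment 1 held at least 10 cells of both classes. For Sst+ or Gcg+ against Ppy+ cells, only that of experiment 2 did. With no cluster requirement, *Iapp* in Gcg+ against Ppy+ cells was -0.91 (5.4e-06) and its level in Ppy+ cells 2401 CPM, and with bihormonal cells outside clusters of their other hormone *Iapp* in Ppy+Sst+ against Sst+ cells was -1.66 (1.8e-10). The latter setting leaves out 365 of the 395 Ppy+Sst+ cells and keeps those chosen for lying apart from Sst+ cells. Between YFP+ and YFP- libraries without the replicate block, *Ins1* was -4.09 (0.0755) and *Ins2* -3.09 (0.160), and by DESeq2 -3.62 (0.427) and -2.65 (0.632), while *Iapp* was -1.95 (0.0012) in endocrine clusters alone and -1.40 (0.0029) with no filter. Without thinning, 95.5% of Gcg+ and 76.6% of Ppy+ cells held an *Iapp* UMI. *Ins1* in Ppy+Gcg+ against Gcg+ cells reversed to 0.029 in YFP- libraries alone. After subtraction of free RNA some class sums were 0, and these contrasts, most of them of *Ins1*, got no value.

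Without 1 experiment, values with no test ranged from 1.86 to 1.96 (*Iapp*, Ins2+ against Sst+) and from 4.10 to 4.13 (*Iapp*, Sst+ against Gcg+). Between YFP+ and YFP- libraries they ranged from -4.59 to -2.61 for *Ins1*, from -3.39 to -1.87 for *Ins2* and from -2.28 to -0.53 for *Iapp*. Leaving out each bulk library in turn gave 3.40 to 4.27 for *Ins1*, 2.89 to 3.69 for *Ins2* and 0.58 to 0.63 for *Iapp*. The bulk replicate numbers did not pair the libraries (correlations -0.10, 0.07 and -0.27), and with a replicate block over numbers 1 to 3 the differences were 3.45, 3.10 and 0.59 (adjusted p = 0.0659 for *Iapp*).

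Counts of called genes fell from 2784 to 508, 2352 to 517, 1615 to 371, 1228 to 367, 1256 to 421 and 1319 to 348 (Ins2+ against Ppy+, Gcg+ and Sst+, Sst+ against Ppy+ and Gcg+, Gcg+ against Ppy+) when cells were thinned to 1000 UMIs, which removes most counts. Lowest and highest counts were 82 and 335 (main 286) for Ppy+Gcg+, 64 and 877 (815) for Ppy+Sst+ and 130 and 804 (743) for Ppy+Ins2+ against Ppy+ cells, 3 and 501 (334) for Ppy+Gcg+ against Gcg+, 1 and 163 (47) for Ppy+Sst+ against Sst+, 32 and 413 (354) for Ppy+Ins2+ against Ins2+ and 566 and 3171 (2412) for YFP+ against YFP- libraries. Depth limits low levels most, since 1 UMI in a cell thinned to 1000 is the smallest level seen.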

Other observations

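Some cells above the *Ins2* threshold expressed a further hormone and belonged to no class. In the YFP- libraries 17 and 18 such cells were above the threshold of *Gcg* or *Sst* but not of *Ppy*, and *Ins1* made up 28.8% and 31.7% of their insulin UMIs, next to 29.3% and 32.4% in Ins2+ cells of the same experiments. In the YFP+ libraries all 6 and 17 such cells were above the *Ppy* threshold, and *Ins1* made up 5.80% and 22.3% of their insulin UMIs, next to 14.9% and 21.3% in Ppy+Ins2+ cells of that fraction. The 17 cells of experiment 2 had a median of 18055 UMIs, against 7535 in Ppy+Ins2+ cells of that library. Whether some of them are doublets left after doublet marking was not tested.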
